A study of Drosophila melanogaster with 6 samples.

Results

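Cyclic AMP and cyclic GMP are small messengers inside the cell. Cyclases make them from nucleotide triphosphates, kinases, exchange factors and ion channels read them, and cyclic nucleotide phosphodiesterases end the signal by hydrolysing them. In the clock neurons of the fly brain the receptor of the neuropeptide PDF signals through cyclic AMP, and dunce (dnc), whose loss impairs olfactory learning, is the classic phosphodiesterase gene of this animal. The 6 phosphodiesterase genes of Drosophila melanogaster described here (dnc, Pde8, Pde6, Pde9, Pde1c and Pde11) were taken by their symbols from the 17868 genes listed for each library. The set was drawn up because Pde11 was lower in all 3 pairs of libraries, to ask whether other members move. The difference of Pde11 between the groups is therefore given as a description with no test, and the other 5 genes, chosen by family name, were tested.

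The libraries were made from about 2000 live cells each, sorted from adult brains for GFP and against the dead-cell dye DAPI, at zeitgeber time 14, 2 h into the dark phase of a day of 12 h light and 12 h dark, after 5 days of entrainment. Prp3-RNAi flies (3 libraries) carried Clk-GAL4, a driver of clock neurons, with UAS-GFP-NLS on one second chromosome and UAS-Prp3-RNAi, a hairpin transgene against a spliceosome protein, on the other. Control flies (3 libraries) carried the same Clk-GAL4 and UAS-GFP-NLS chromosome over a wild-type one, so that both groups expressed GAL4 and the marker, and the control carried no other hairpin. The title of each control library names the Prp3-RNAi library it is paired with, without saying what a pair shares. The hairpin was expressed in every cell in which the driver is active, and nothing in the labels says whether libraries came from separate groups of flies, so p-values measure the spread between these libraries.

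The libraries held 24477244 to 32551739 counts in genes. Prp3 itself averaged 22.0 ± 9.75 CPM in Prp3-RNAi and 47.9 ± 19.8 CPM in control libraries (counts scaled to a common library total, with TMM factors; SD, n = 3 each) and was lower in 3 of 3 pairs, against 17.6% of all tested genes. Its adjusted p was 0.384 by edgeR and 0.00883 by DESeq2, so the main test did not call the targeted gene. All 10 clock neuron markers were detected and tested, with Pdp1 at 1219 to 1367 CPM in Prp3-RNAi and 1301 to 1659 CPM in control and tim at 566 to 663 CPM in Prp3-RNAi and 557 to 830 CPM in control. Of these 10, 4 were lower and 0 higher in all 3 pairs, against 17.6% and 17.5% of all 8708 tested genes. With edgeR 0 of the 10 were called and with DESeq2 1, against 0% and 4.36% of all tested genes. The gene called was cry, the blue-light receptor gene, at 85.7 ± 4.97 CPM in Prp3-RNAi and 172 ± 60.4 CPM in control (DESeq2 adjusted p = 0.00993, edgeR 0.428). Its groups did not overlap, nor did those of vri, at 165 to 238 CPM in Prp3-RNAi and 251 to 322 CPM in control. Groups that did not overlap were found for 5.34% of all tested genes, lower in Prp3-RNAi, and for 6.27%, higher. The glial transcription factor gene repo did not exceed 1.56 CPM in any library. The 5 Kenyon cell markers summed to 620 to 1011 CPM in Prp3-RNAi and 594 to 726 CPM in control, most of it from toy and mub, and the 16 photoreceptor markers to 266 to 475 CPM in Prp3-RNAi and 303 to 404 CPM in control, most of it from norpA, at 263 ± 79.6 CPM in Prp3-RNAi and 261 ± 41.5 CPM in control. ninaE, the next by level, ranged from 0.133 to 40.3 CPM in Prp3-RNAi and from 0 to 54.0 CPM in control. Of the 12 photoreceptor markers tested, 6 were higher and 6 lower in Prp3-RNAi by the edgeR fit. One of them, gl, was lower in 3 of 3 pairs, at 12.0 ± 8.28 CPM in Prp3-RNAi and 26.7 ± 7.12 CPM in control with overlap. DESeq2 called 2 of the 12 and edgeR 0, against 4.36% and 0% of all tested genes. Both genes called by DESeq2 were higher in Prp3-RNAi in 3 of 3 pairs, against 17.5% of all tested genes. They were ninaC, at 4.19 ± 2.95 CPM in Prp3-RNAi and 0.106 ± 0.0976 CPM in control with no overlap (DESeq2 adjusted p = 0.00446, edgeR 0.435), and Arr2, at 16.1 ± 12.3 CPM in Prp3-RNAi and 3.66 ± 3.42 CPM in control (DESeq2 adjusted p = 0.0141, edgeR 0.475). ninaC had 227, 63 and 88 counts in Prp3-RNAi libraries 1 to 3, against 1, 2 and 5 in control libraries 1 to 3. It passed the filter on counts only through Prp3-RNAi, so its missing overlap and its p-values are a description, not support for a difference. The 11 glia markers summed to 343 to 539 CPM in Prp3-RNAi and 297 to 741 CPM in control, led by Gs2 and nrv2, and the 10 fat body and blood cell markers to 5.89 to 29.6 CPM in Prp3-RNAi and 17.4 to 89.7 CPM in control. In that list Lsp2 and He were at 0 in every library, and apolpp was the most abundant gene. Of the 89.7 CPM of control library 3, 45.9 came from Hml and 29.0 from NimC1. In every other library Hml was at 0.188 CPM or less and NimC1 at 0.

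Peptide genes that mark subsets of clock neurons did differ between libraries. Pdf, the gene of pigment-dispersing factor, had 302, 155 and 19961 CPM in Prp3-RNAi libraries 1 to 3, against 15942, 2566 and 17385 CPM in control libraries 1 to 3. CNMa averaged 457 ± 210 CPM in Prp3-RNAi and 1315 ± 216 CPM in control, and Trissin 25.3 ± 37.5 CPM in Prp3-RNAi and 1587 ± 824 CPM in control (SD, n = 3 each). Both were lower in 3 of 3 pairs with no overlap between the groups, against 17.6% and 5.34% of all tested genes. Among the 12 peptide genes, summed levels were 8056 to 41527 CPM in Prp3-RNAi and 14013 to 38149 CPM in control, 0 were called with edgeR and 3 with DESeq2, against 0% and 4.36% of all tested genes. Before adjustment edgeR's p was under 0.05 for 1 higher and 3 lower, against 4.71% and 5.27% of all tested genes. In bulk samples of sorted cells, fewer cells of a type and less RNA per cell cannot be told apart.

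All 6 phosphodiesterase genes are protein-coding, and all were counted in every library, with 461 to 11979 counts. In build BDGP6.54 (dm6 coordinates) dnc lies on chromosome X from 3176440 to 3343767 on the plus strand, spans 167328 bases and has 17 annotated transcripts with 9 different start positions. Pde9 lies on chromosome X from 12785563 to 12897327 on the minus strand, Pde6 on 3R from 14513901 to 14558304 on the minus strand and Pde8 on 2R from 23657567 to 23680844 on the plus strand. Pde1c and Pde11 both lie on the minus strand of 2L, from 11814156 to 11928572 and from 18532025 to 18590342. The most introns in a transcript were 19 for Pde8, 17 for Pde11, 15 for dnc, 13 for Pde6 and 9 each for Pde9 and Pde1c. Exons of 5 members are shared with no other annotated gene. Pde1c shares 332 bases, or 4.17% of its merged exons, with lncRNA:CR45013 on the opposite strand, and counting each strand on its own added 1.49% to 6.24% to its counts and at most 0.172% to those of the others. Pde1c, Pde8 and Pde11 lie on the chromosome that carries the hairpin transgene in one group and not in the other, so an effect of linked sequence and an effect of the knockdown cannot be told apart for them or for any other gene of that chromosome.

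Per length, dnc was the highest member and Pde8 the lowest in both groups. Levels are given as CPM per kilobase of merged exons, averaged over the 6 libraries with their SD. dnc, which hydrolyses cyclic AMP, stood highest at 22.1 ± 1.31, followed by Pde6, a cyclic GMP phosphodiesterase of the fly, at 17.9 ± 1.20. Pde1c, an enzyme of both messengers that is activated by calcium and calmodulin, stood at 14.7 ± 2.0. Pde9, named for the mammalian enzyme that hydrolyses cyclic GMP, stood at 13.4 ± 3.22, and Pde11, which hydrolyses both messengers, at 10.5 ± 4.57. Pde8, named for the mammalian enzyme that hydrolyses cyclic AMP, was lowest at 3.53 ± 1.18, below the other 5 genes in every library. In control libraries 61.2% of the tested genes of known length had a lower level than dnc and 27.7% a lower level than Pde8.

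Neighbours in this order were compared within each library on the log2 scale. dnc was above Pde6 in 6 of 6 libraries, by 0.31 ± 0.13 (mean and SD of the log2 difference), and Pde6 above Pde1c in 6 of 6, by 0.29 ± 0.20. Pde1c was above Pde9 in 4 of 6 libraries by 0.16 ± 0.29, and this difference was within its spread. The place of Pde11 depended on the group. It ranked 5 of the 6 genes in Prp3-RNAi, where it was below Pde9 in all 3 libraries, and 3 of the 6 in control, where it was above Pde9 in all 3. Pde11 was above Pde8 in 6 of 6 libraries, by 0.89 ± 0.27 in Prp3-RNAi and by 2.14 ± 0.67 in control (SD, n = 3 each). With the longest transcript in place of merged exons, Pde1c moved above Pde6, and the order was otherwise the same.

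Pde11 was lower in Prp3-RNAi. It had 49.6, 43.3 and 55.3 CPM in Prp3-RNAi libraries 1 to 3, against 113, 103 and 121 CPM in control libraries 1 to 3. Every Prp3-RNAi library lay below every control library. The means were 49.4 ± 6.02 CPM in Prp3-RNAi and 112 ± 8.96 CPM in control (SD, n = 3 each), and the log2 ratio of Prp3-RNAi to control, as fitted by edgeR with the pair as a block, was -1.19 (SE 0.13), or 43.8% of control. The pairs differed by -1.19, -1.25 and -1.13 on the log2 scale, with an SD of 0.06 between pairs. A larger absolute log2 ratio was found for 14.6% of the tested genes. These are the values for which the set was drawn up, and no test was made of them. The difference was present in pair 3, in which Pdf was high in both libraries, and in pairs 1 and 2, in which Pdf was lower in Prp3-RNAi. This split sets 1 pair against 2 and uses the differences for which Pde11 was chosen. The part of Pdf in the difference of Pde11 was not tested. CNMa, Trissin, cry and vri were lower in the same libraries as Pde11 and ninaC was higher in them, and their part in its difference was not tested.

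**Figure D1:**
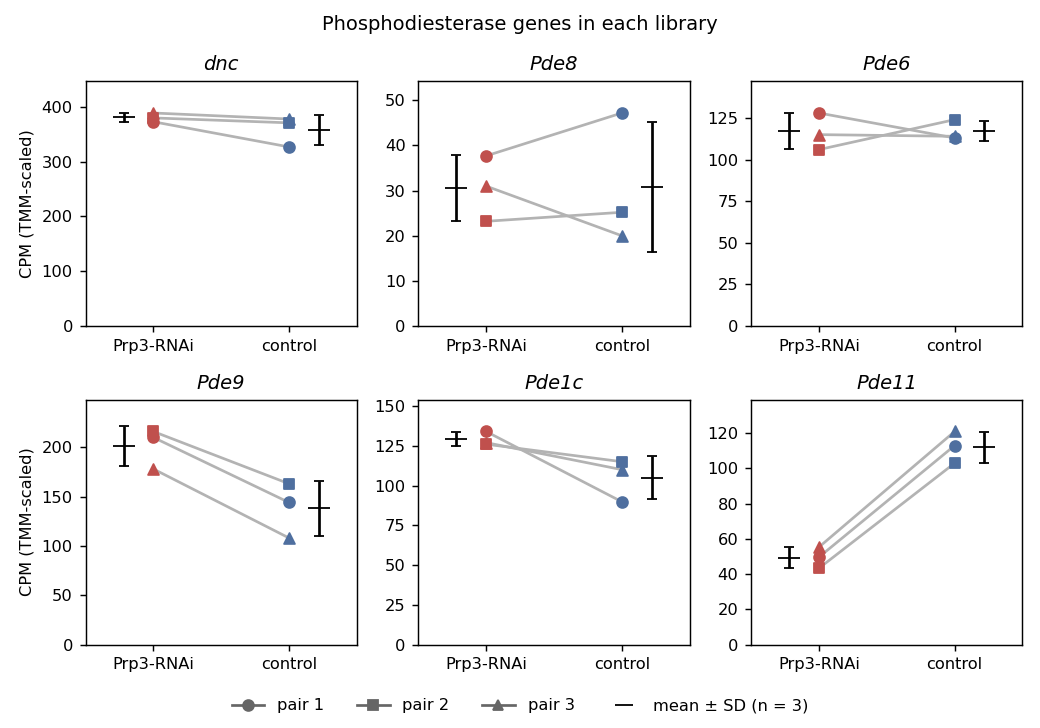
Level of each phosphodiesterase gene in CPM (TMM-scaled, linear axis from 0) in Prp3-RNAi (left, red) and control (right, blue) libraries. Grey lines join the libraries of a stated pair and black bars give mean ± SD of 3 libraries. Pde11 lay at 43.3 to 55.3 CPM in Prp3-RNAi and 103 to 121 CPM in control, and Pde9 at 178 to 216 CPM in Prp3-RNAi and 108 to 163 CPM in control.

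Pde9 differed in the opposite direction. It had 210, 216 and 178 CPM in Prp3-RNAi libraries 1 to 3, against 144, 163 and 108 CPM in control libraries 1 to 3. All Prp3-RNAi libraries were above all control libraries. The log2 ratio was 0.56 (SE 0.12, 95% interval 0.26 to 0.85), or 147% of control, with pair differences of 0.54, 0.40 and 0.72. By the p-value of edgeR's quasi-likelihood test Pde9 ranked 101 of 8708 genes, with adjusted p = 0.384 (Benjamini-Hochberg over all tested genes), so it did not pass the threshold of 0.05. DESeq2 gave a log2 ratio of 0.54 (SE 0.15) and an adjusted p of 0.0133, and Pde9 was the only 1 of the 5 tested members that any of the 10 alternatives called. Its adjusted p ranged from 0.0133 to 0.937 over them and its log2 ratio from 0.47 to 0.64. Within each group the library with the least Pde9 was the one with the most Pdf, library 3. In pair 3, where Pdf was 19961 CPM in Prp3-RNAi and 17385 CPM in control, Pde9 differed by 0.72, the widest gap of the pairs. The order was seen after the fact in 3 libraries per group, and the part of Pdf in the difference of Pde9 was not tested.

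Pde1c was also higher in every Prp3-RNAi library than in any control library. It had 134, 126 and 127 CPM in Prp3-RNAi libraries 1 to 3, against 89.8, 115 and 110 CPM in control libraries 1 to 3. The Prp3-RNAi libraries lay close together and control library 1 was the lowest of all. The log2 ratio was 0.31 (SE 0.14, 95% interval -0.05 to 0.67), with adjusted p = 0.552 by edgeR. The pairs differed by 0.58, 0.13 and 0.21, so pair 1 gave most of the difference, and the ratio without it was 0.18 on the log2 scale. This was not beyond the spread between libraries in the fit.

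The 3 remaining members differed little or not evenly. dnc had 373, 380 and 389 CPM in Prp3-RNAi libraries 1 to 3, against 327, 371 and 378 CPM in control libraries 1 to 3, and control library 1 alone stood apart. edgeR gave a log2 ratio of 0.09 (SE 0.10) with adjusted p = 0.814. The 95% interval of dnc ran from -0.16 to 0.34, that is from 89.6% to 126% of control. Pde6 had 128, 106 and 115 CPM in Prp3-RNAi libraries 1 to 3, against 113, 124 and 114 CPM in control libraries 1 to 3, with the groups overlapping. The log2 ratio was -0.01 (SE 0.13, adjusted p = 0.991, edgeR), and its 95% interval ran from 78.7% to 126% of control.

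Pde8 was the most variable member. It had 37.7, 23.2 and 31.0 CPM in Prp3-RNAi libraries 1 to 3, against 47.2, 25.2 and 20.0 CPM in control libraries 1 to 3. The groups overlapped, and pair 3 ran against the other pairs, with log2 differences of -0.32, -0.12 and 0.63. The log2 ratio was 0.06 (SE 0.28, adjusted p = 0.963, edgeR), and its 95% interval, 63.7% to 171% of control, is the widest of the 5 tested members and holds changes as large as that of Pde9. Without pair 3 the log2 ratio was -0.22. Counting error at its lowest count, 461 reads, is 4.66%, against a coefficient of variation of 23.7% in Prp3-RNAi and 47.0% in control.

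**Figure D2:**
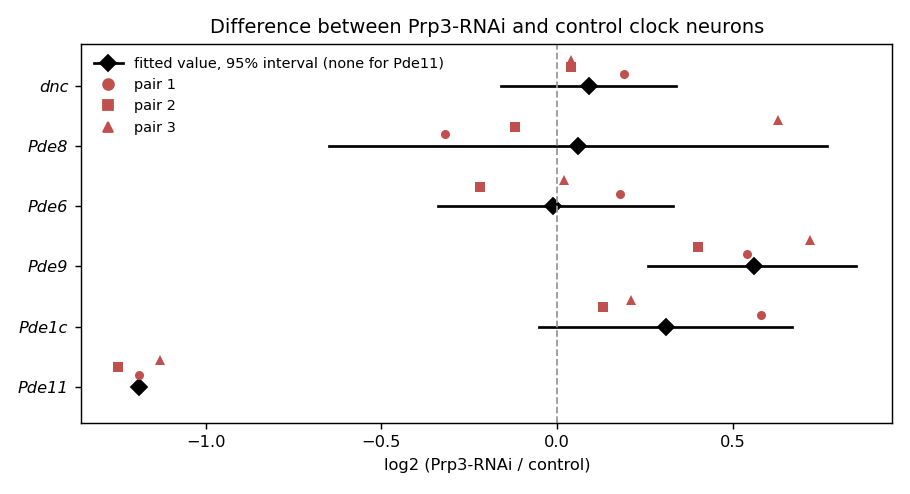
Log2 ratio of Prp3-RNAi to control for each gene. Black diamonds give the value fitted by edgeR with its 95% interval (not drawn for Pde11, which was chosen on this difference), and red symbols give the difference within each pair. The pairs of Pde11 lie between -1.25 and -1.13, those of Pde9 between 0.40 and 0.72, and those of Pde8 lie on both sides of 0.

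Over the family, 0 of the 5 tested members were called with edgeR at an adjusted p under 0.05, a rule that called 0 of 8708 genes (0%). Before adjustment, p was under 0.05 for 1 of the 5, Pde9, which was higher in Prp3-RNAi, and for 9.98% of all tested genes (4.71% higher and 5.27% lower in Prp3-RNAi). Higher values in Prp3-RNAi in all 3 pairs were found for dnc, Pde9 and Pde1c, against 17.5% of all tested genes, and lower values in all 3 pairs for Pde11, against 17.6%. Groups that did not overlap were found for Pde9 and Pde1c, higher in Prp3-RNAi (6.27% of all tested genes), and for Pde11, lower (5.34%). DESeq2 called 4.36% of all tested genes, 1.8% higher and 2.56% lower in Prp3-RNAi. The median log2 ratio over the 6 genes was 0.07, against 0.01 over all tested genes.

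The summed level of the family per length overlapped between the groups. The 6 genes summed to 86.1, 80.2 and 81.6 CPM per kilobase in Prp3-RNAi libraries 1 to 3, against 79.7, 84.7 and 80.3 CPM per kilobase in control libraries 1 to 3. The shares of 3 members did not overlap. Pde11 made up 7.76 ± 0.929% of the sum in Prp3-RNAi and 17.9 ± 1.94% in control, and Pde9 19.2 ± 2.02% in Prp3-RNAi and 13.3 ± 2.43% in control (SD, n = 3 each). The share of Pde1c was 19.6 ± 0.141% in Prp3-RNAi and 16.1 ± 1.71% in control. For dnc, Pde6 and Pde8 the shares of the groups overlapped. The ratio of Pde9 to Pde11 per length was 2.57, 3.03 and 1.95 in Prp3-RNAi libraries 1 to 3, against 0.771, 0.961 and 0.541 in control libraries 1 to 3. By substrate, the enzymes of cyclic AMP (dnc and Pde8) held 31.9 ± 0.991% of the sum in Prp3-RNAi and 30.7 ± 0.924% in control. Those of cyclic GMP (Pde6 and Pde9) held 40.7 ± 1.73% in Prp3-RNAi and 35.2 ± 2.72% in control, and those of both (Pde1c and Pde11) 27.4 ± 0.809% in Prp3-RNAi and 34.1 ± 2.29% in control. Shares of a sum are tied to each other and to the choice of Pde11, so these values are a description with no test, and levels of transcripts are not activities of enzymes.

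**Figure D3:**
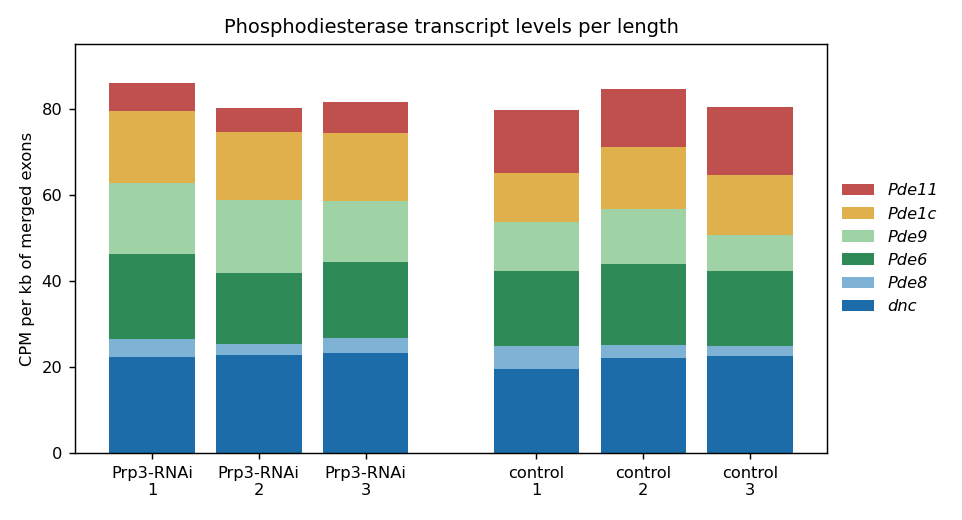
Stacked levels of the 6 genes in CPM per kilobase of merged exons, from 0, for each Prp3-RNAi library (left) and control library (right). The totals lie between 79.7 and 86.1, while the Pde11 segment is 5.62 to 7.18 in Prp3-RNAi and 13.4 to 15.7 in control.

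The members differed in how steady they were between libraries. The SD of log2 CPM within groups was 0.08 for dnc, 0.11 for Pde6, 0.14 for Pde1c, 0.15 for Pde11, 0.24 for Pde9 and 0.52 for Pde8. Among genes within 0.5 log2 units of the mean level of each, the share with a smaller SD was 2.78% for dnc (432 genes), 2.68% for Pde6 (1081 genes), 8.26% for Pde1c (1077 genes) and 5.27% for Pde11 (1365 genes). It was 42% for Pde9 (857 genes) and 64.4% for Pde8 (1451 genes). Choosing Pde11 for a fall in all 3 pairs favours a small spread, so its place here is a description only.

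The genes whose profile over the 6 libraries lay closest to each member were found by the root mean square difference of centred log2 CPM, among 6252 genes with a mean of at least 10 CPM. For Pde11 they were CG40498 (0.129), CG1827 (0.171) and CG11523 (0.176), where the median gene lay at 0.695. CG40498 averaged 473 ± 49.6 CPM in Prp3-RNAi and 1086 ± 238 CPM in control (SD, n = 3 each). Pde11 had a root mean square of 0.607 around its own mean, largely the group difference for which it was chosen. Genes near Pde11 are therefore genes with a like fall, and their likeness reuses those values. For Pde9 they were the calcium channel gene Ca-alpha1T (0.058), mute (0.069) and CG5521 (0.091). Ca-alpha1T averaged 230 ± 29.1 CPM in Prp3-RNAi and 161 ± 32.6 CPM in control. For Pde1c they were CG8924 (0.033), Ih (0.063), a channel gated by cyclic nucleotides and voltage, and sicily (0.064). For dnc they were mEFTs, nmo and Cdk7 (0.056 to 0.058), for Pde6 the respiratory chain genes ND-B17 and ND-ASHI and shv (0.056 to 0.059), and for Pde8 CG10189, Atg17 and side-V (0.095 to 0.133). The median gene lay at 0.476 from Pde9, 0.382 from Pde1c, 0.34 from dnc, 0.341 from Pde6 and 0.54 from Pde8. dnc and Pde6 were nearly flat, with a root mean square of 0.081 and 0.088 around their own means, so genes near them are also nearly flat. With 6 libraries and 6252 genes, near profiles are found for any gene.

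Genes that make, sense or anchor the cyclic nucleotide signal were read in the same fit, and 0 of them were called with edgeR. Before adjustment p was under 0.05 for 9 of the 53 tested, 5 higher and 4 lower in Prp3-RNAi, against 9.98% of all tested genes, 4.71% higher and 5.27% lower. DESeq2 called 3 of the 53, against 4.36% of all tested genes. Of the 13 adenylyl cyclase genes listed, 6 were tested, 4 above and 2 below 0 with a median log2 ratio of 0.06, and 0 had p under 0.05 before adjustment (1 without pair 3). The smallest p-values there were those of rut, the calcium-responsive cyclase of the learning mutant rutabaga, at 21.1 ± 1.74 CPM in Prp3-RNAi and 17.1 ± 0.805 CPM in control, and of Ac76E, at 37.1 ± 12.4 CPM in Prp3-RNAi and 42.3 ± 8.97 CPM in control (SD, n = 3 each). Of 10 guanylyl cyclase genes tested, 2 were higher and 1 was lower by p under 0.05 before adjustment, with a median of -0.07, and this count of 3 was 1 without pair 2 and 1 without pair 3. Gyc32E, a receptor guanylyl cyclase gene on 2L, the chromosome that differs by the hairpin transgene, had 31.1, 91.2 and 53.5 CPM in Prp3-RNAi libraries 1 to 3, against 9.12, 35.3 and 11.8 CPM in control libraries 1 to 3. It was higher in 3 of 3 pairs with a log2 ratio of 1.77 (SE 0.24), adjusted p = 0.254 by edgeR and 3.42e-06 by DESeq2. Gycbeta100B, a subunit of the nitric oxide receptor, had a log2 ratio of 0.43 (SE 0.14, adjusted p = 0.453, edgeR).

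Of the 15 effector genes tested, 1 was higher and 1 lower by p under 0.05 before adjustment, against 4.71% and 5.27% of all tested genes. The median log2 ratio was 0.01. The count of 2 past that p was 0 without the block, 0 without pair 1 and 1 without pair 2. Ih, on the hairpin's chromosome (2R), averaged 677 ± 18.6 CPM in Prp3-RNAi and 545 ± 78.7 CPM in control (log2 ratio 0.32, SE 0.11, adjusted p = 0.468, edgeR). CrebA, a bZIP transcription factor gene, averaged 42.2 ± 6.58 CPM in Prp3-RNAi and 58.4 ± 3.64 CPM in control (log2 ratio -0.48, SE 0.18, adjusted p = 0.483, edgeR). CrebA was counted as listed, and these data do not show that it responds to a cyclic nucleotide. Of the 16 receptor and G protein genes, all tested, 2 were higher and 0 lower by that rule, with a median of 0.10, and this count was 1 without the block, with RLE factors, with limma-voom, without pair 2 and without pair 3. Both code for octopamine receptors. Octbeta1R had 309, 485 and 209 CPM in Prp3-RNAi libraries 1 to 3, against 153, 269 and 107 CPM in control libraries 1 to 3. The groups overlapped, while every pair was higher, with a log2 ratio of 0.94 (SE 0.10), adjusted p = 0.129 by edgeR and 1.19e-11 by DESeq2. Octbeta2R had a log2 ratio of 0.58 (SE 0.23, adjusted p = 0.496, edgeR).

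Among the 6 partners and anchors, all tested, 0 were higher and 2 lower by p under 0.05 before adjustment, against 4.71% and 5.27% of all tested genes. The median was 0.06, and the count of 2 was 1 without the block, without pair 1 and without pair 2. Akap200 and PrBP (2L) and Cam (2R) lie on the chromosome of the hairpin transgene. Akap200, which anchors protein kinase A at membranes and the cytoskeleton, had 165, 164 and 166 CPM in Prp3-RNAi libraries 1 to 3, against 319, 229 and 218 CPM in control libraries 1 to 3. The groups did not overlap, and the log2 ratio was -0.61 (SE 0.15), with adjusted p = 0.417 by edgeR and 0.00818 by DESeq2. Its exons share 5.34% of their length with grk on the other strand. PrBP, the fly counterpart of the small subunit that binds the prenyl group of mammalian rod phosphodiesterase, averaged 107 ± 25.2 CPM in Prp3-RNAi and 139 ± 27.6 CPM in control (log2 ratio -0.39, SE 0.12, adjusted p = 0.442, edgeR). Cam, the gene of the calmodulin that activates Pde1c, had 2066 to 2177 CPM in Prp3-RNAi and 1923 to 2505 CPM in control, and its log2 ratio was 0.00 (SE 0.11, adjusted p = 0.999, edgeR).

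**Figure D4:**
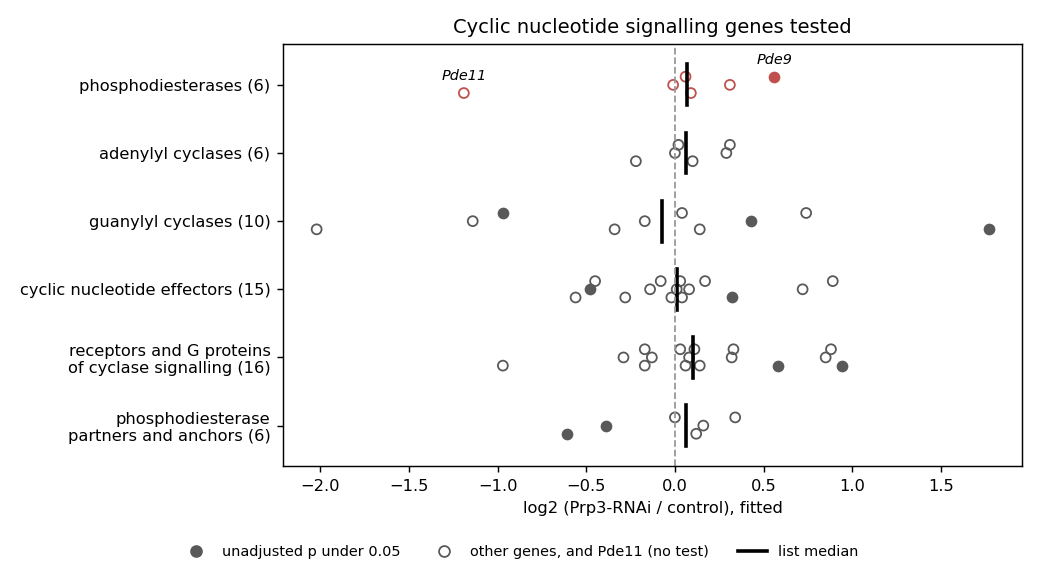
Fitted log2 ratio of Prp3-RNAi to control for each tested gene of 6 lists, with the number tested in brackets and the list median as a black bar. Filled points had an unadjusted p under 0.05, and Pde11 is drawn open because it was not tested. The list medians lie between -0.07 and 0.10, and single genes lie on both sides of 0 in every list.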

How the data were processed

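The deposited files held whole-number read counts per gene, 1 file per library, in 3 columns (both strands together and each strand assignment), with 4 lines above the genes that name none. Trim Galore 0.6.7, STAR 2.7.0a and the build dm6 are named in the submitters' processing notes, and the annotation is not given in the sources used here. The column for both strands was used, since the strand columns held equal shares. The lines naming no gene took 18.5% to 24.4% of reads and stayed out of library sizes. Depth was 24477244 to 32551739 gene counts, and amplified reads are not independent molecules, so counting error understates the error of a value.

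Groups and pairs were taken from the titles. Differences were tested with edgeR 4.0.16 in R 4.3.3 (glmQLFit and glmQLFTest, two-sided, TMM, filterByExpr with min.count 10 and min.total.count 15, which kept 8708 genes, among them all 6 members), in a model with the pair as a block, and Benjamini-Hochberg adjustment over all tested genes at 0.05. DESeq2 1.42.0 and limma-voom (limma 3.58.1) were alternatives, and all 3 tools were tested on simulated data. As a check of the pairing stated in the titles, deviations of log2 CPM (prior count 2) from group means correlated at 0.0458, 0.266 and 0.236 between libraries of the same number. Between libraries of different number they correlated at -0.252 to 0.0203, so pair 1 lay little above the highest of these. Exon lengths and places came from the Ensembl annotation of BDGP6.54, which matched 17161 of 17868 symbols. Text names all members, the 2 genes with the smallest p-value in each list of the pathway, the 3 genes most like each member, Prp3, Pdf and the 2 most abundant genes of each marker list. CNMa and Trissin are the 2 peptide genes with the smallest p-value. tim, cry, vri, gl, ninaC, Arr2, repo, NimC1, Cam and the genes at 0 were named beyond that rule after their values were seen. Members and lists were chosen with earlier results of these data known. Of the genes on the pathway lists, 4 symbols were not matched in the files.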

Additional observations from a re-analysis of the deposited data

How the results depend on the processing

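The direction of Pde11, Pde9, Pde1c and dnc was the same under the 10 alternatives. The sign of the log2 fold changes near 0 was not: Pde8 was at -0.009 without the replicate block and at -0.04 with limma-voom, and Pde6 at 0.003 with the strand columns summed; leaving out a pair gave -0.22 to 0.27 for Pde8 and -0.09 to 0.11 for Pde6. Pde9 was called by DESeq2 alone (log2 fold change 0.54). The number of genes called over all genes, 0 with edgeR and the block (with 869 at p under 0.05 before adjustment), was 8 without the block (with 421), 380 with DESeq2, 4 with limma-voom, 11 with a filter of at least 1 count, 4 with a filter of at least 50 counts in 3 libraries, and 0 to 4 when a pair was left out. In the pathway lists 0 genes were called except by DESeq2, which called 3. Since the fit with the block called 0 genes, removing it could lose no call of a member, and it gained none among the 5 tested. The adjusted p of Pde9 by edgeR was 0.384 with the block and 0.937 without it. With the length of the longest transcript the mean log2 levels per length were 5.05 for dnc, 2.40 for Pde8 and 4.35 for Pde1c, against 4.47, 1.76 and 3.86 with merged exons. The causes were not tested. With 3 libraries per group, precision is limited by the spread between libraries. The part of depth in that spread was not tested.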
